A study of Ctenopharyngodon idella with 15 samples.

Results

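The genes described here are those whose gill RNA was lower in every salt-treated grass carp than in every untreated one. An id (a gene model as the files name it) was taken when its FPKM (fragment counts scaled by transcript length and by library size) was above 0 in all 15 fish, its mean FPKM was at least 1, and the highest of the 12 treated fish lay below the lowest of the 3 control fish. Of 40116 ids, 23368 were above 0 in all fish and 20971 of these had a mean FPKM of at least 1. The order of the fish held for 83 of them, or 0.396%. The opposite order, with every treated fish above every control fish, held for 191, or 0.911%. Both counts are for FPKM as deposited, where the median of log2(FPKM + 1) differences over all these ids was 0.06, higher in treated fish. The count of lower ids rose under 2 other scalings, given below, so the 2 counts are not compared further. Of the 83 ids, 3 are named in the study's figures and were set aside, which left 80 members, 71 given by a genome locus and 9 by a newGene number. The limit of 200 members was not reached.

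The study asked how the gills of a freshwater fish respond to 30 days in saline water. All 15 grass carp (Ctenopharyngodon idella) were 3 months old by their labels and uninfected, with 3 fish in each of 5 groups and 1 gill library per fish. The con group was kept at 0‰ salinity and was labelled healthy. The others were kept at 3‰ or 6‰ salinity prepared from sea salt, and at each salinity gills were taken from asymptomatic fish, labelled healthy, and from symptomatic fish, labelled injured. The labels write these salinities with a percent sign, and the unit used here is that of the study's methods. The symptomatic state was chosen by the look of the fish, the control group held no symptomatic fish, and the sources used here do not say which tank a treated fish came from, so salinity and tank cannot be told apart. Summed FPKM per library was 759044 to 852270, and 28848 to 30345 ids were above 0. The number of reads behind a value is not known. The closest 2 libraries of all 105 pairs came from different groups: 3‰-treated symptomatic replicate 1 and 6‰-treated symptomatic replicate 1 had a median absolute difference of 0.144 on the log2 scale, against 0.185 for the next pair. The numbers of members called between treated fish are also given without these 2 fish. Replicate 1 of the 6‰-treated symptomatic group was also close to 3‰-treated asymptomatic replicate 1, at 0.1905. Replicates 2 and 3 of its own group were farther from it, at 0.258 and 0.533. The most distant of all pairs, at 0.546, was 3‰-treated symptomatic replicate 1 and 6‰-treated symptomatic replicate 3.

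The gill is the organ through which a freshwater fish takes up the salts it loses to the water, by ion-transporting cells (ionocytes) set among flat epithelial cells that are sealed by junctions. The same thin epithelium exchanges gas and is a mucosal surface with resident immune cells. When the water becomes saltier, teleost gills are known to change their ion pumps, junctions and cell make-up. In whole gill, fewer cells of a type and less RNA per cell cannot be told apart. The files do not pair the ids with gene names, and none of them matched the RefSeq gene table of the species, so 0 of the 80 members has a name or a known role here and the gill's own cell markers could not be looked up. The 3 ids that met the rule and were set aside are the only ones with a name, and they are described after the members.

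Most members differed little between control and treated fish, and a few differed much. The ratio of the control mean to the treated mean was at least 2 for 12 members, from 1.5 to under 2 for 19 and under 1.5 for 49. Its median was 1.41 and its range 1.10 to 12.3. On the log2(FPKM + 1) scale the median difference of treated minus con was -0.45, beside 0.06 for all 20971 ids that passed the filters. These values chose the members, so they describe the selection and are no test of it. Lowest control fish and highest treated fish were often almost level: the ratio of the former to the latter had a median of 1.06 and was largest, 2.87, for the member of rank 1. The median mean FPKM was 16.2 for the members and 10.7 for the 20971 ids, and the median span of the members' loci was 4554 bp against 6160 bp.

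**Figure D1:**
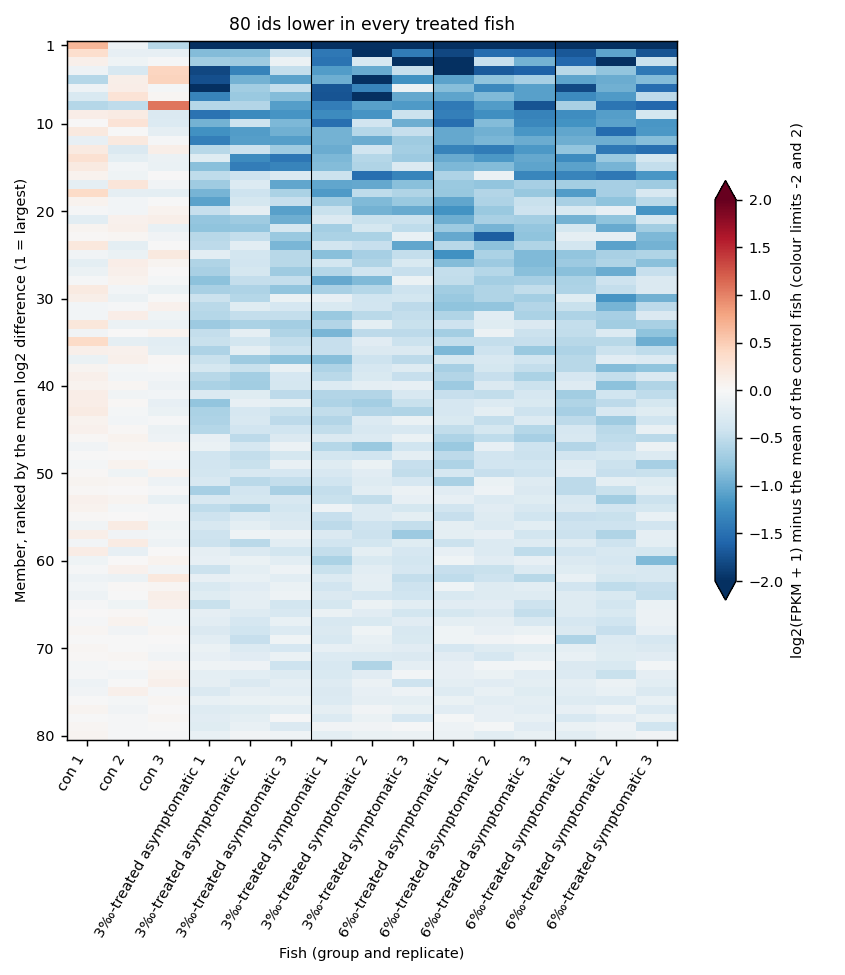
Each row is 1 of the 80 members, ordered by the mean log2 difference, and each column is a fish; colour gives log2(FPKM + 1) minus the mean of the 3 control fish. All 12 treated columns are blue in every row by the rule, and the shade fades from the first rows to the last, where the ratio of the means is 1.10.

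Of the 2 thresholds, that on the order of the fish cut through a continuous range, and that on mean FPKM fell between ids some way apart. The member of lowest mean FPKM was newGene_20467 at 1.40, and the id just outside, CI01000046_03920813_03930435, had 0.993. The member closest to overlap was CI01000171_00682164_00692362, with 32.85 FPKM in its lowest control fish and 32.80 in its highest treated fish. Just outside lay CI01000059_04732477_04736667, with 16.714 in its lowest control fish and 16.721 in its highest treated fish. A further 6 ids kept the order of the fish and a mean of at least 1 but were listed at 0 in some treated fish, and so are no members. Their log2 differences of control minus treated were 1.40 to 2.12, above the 1.37 of the member of rank 2. Among them the largest ratio of lowest control fish to highest treated fish was 3.35, above that of any member. The filter on 0 values thus left out ids of large difference.

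The member of rank 1 stood apart from the rest. CI01000249_00110149_00111546, a locus of 1398 bp, had 57.13, 33.3 and 24.1 FPKM in the 3 control fish. At 3‰ its values were 5.47, 8.39 and 8.30 without symptoms and 0.703, 4.74 and 0.378 with them. At 6‰ they were 2.83, 0.975 and 2.12 without symptoms and 1.12, 1.28 and 0.990 with them. The control mean was 38.2 ± 17.1 (SD, n = 3) and the treated mean 3.11, a ratio of 12.3. Among treated fish all 3 of the 3‰-treated asymptomatic group were above the other 9.

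The next members by rank differed less from con. CI01000171_00732682_00786057 had 9.31, 6.35 and 6.28 FPKM in the control fish. At 3‰ it had 3.51, 3.55 and 5.17 without symptoms and 2.03, 0.972 and 2.12 with them, and at 6‰ it had 1.31, 1.81 and 1.79 without and 1.53, 2.93 and 1.48 with symptoms. Here too the 3‰-treated asymptomatic fish were the highest of the treated ones, and the other 3 treated groups overlapped. CI01000143_00620553_00662108 was level in the control fish, at 16.1, 13.9 and 14.7 FPKM. Its treated values ran from 0.611 in 3‰-treated symptomatic replicate 3 to 13.6 in 3‰-treated asymptomatic replicate 3, so that single treated fish nearly reached the control fish and the groups of treated fish overlapped widely.

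CI01000219_00134125_00135883 had 19.2, 16.4 and 28.3 FPKM in the control fish. Its lowest group was the 6‰-treated asymptomatic one, at 3.36, 5.75 and 6.11, and the highest treated value, 14.7, was found in 3‰-treated symptomatic replicate 3. The order of the treated groups was thus not that of the member of rank 1. CI01000016_05064542_05068162 had 95.1, 154 and 194 FPKM in the control fish. In treated fish its values lay between 41.3 and 88.9, except for 17.0 in 3‰-treated symptomatic replicate 2. At 24512 bp from it lies an id that the study names CD4-like protein, whose family in mammals is the T helper cell co-receptor. That id was not a member: it had 36.5, 84.8 and 172 FPKM in the control fish and 15.4 to 117 in treated fish. It too was low, at 17.3, in 3‰-treated symptomatic replicate 2, but it was as low in replicate 3 of that group, at 18.9, and in 6‰-treated symptomatic replicate 3, at 15.4, where the member had 60.6 and 77.1.

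**Figure D2:**
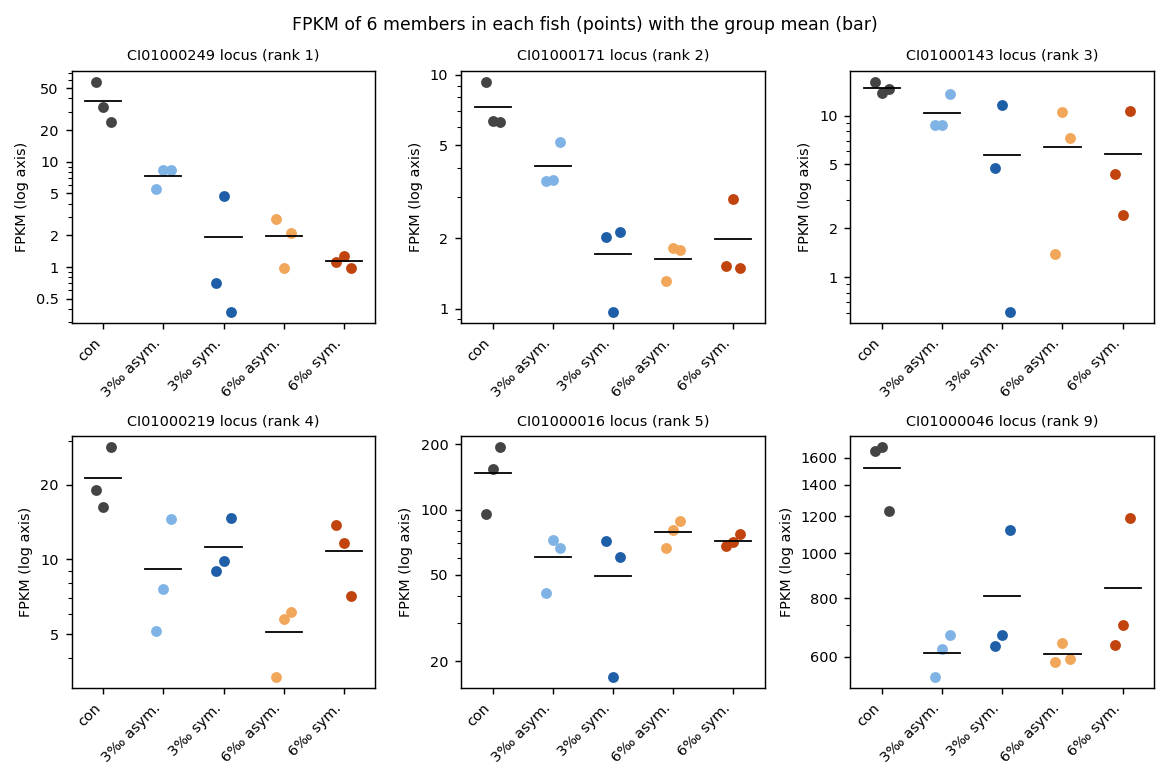
FPKM (log axis) of the 5 members of largest difference and of the member of highest FPKM, with 1 point per fish and a bar at the group mean (n = 3). For the CI01000249 locus the treated fish reach 8.39 at most against 24.1 in the lowest control fish; for the CI01000143 locus they reach from 0.611 to 13.6.

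The 3 members of highest mean FPKM differed in how far control and treated fish lay apart. CI01000046_00063416_00065082 had the highest mean FPKM, with 1653, 1684 and 1228 in the control fish. In treated fish it lay between 543 and 702 except in 3‰-treated symptomatic replicate 3 and 6‰-treated symptomatic replicate 3, at 1123 and 1186, close under the lowest control fish. These 2 fish share the replicate number 3, and the labels do not say what the number stands for. CI01061114_00000542_00000880, a locus of 339 bp, had 812, 1046 and 900.5 FPKM in the control fish and 352 to 560.1 in the treated ones, which left a clear gap. CI01000020_02113206_02120765 had 659.5, 634 and 639 in the control fish and 489 to 631 in the treated ones, a ratio of means of only 1.11. Summed over all 80 members, FPKM was 6238 to 6832 in control fish and 3926 to 4971 in treated fish. By the rule these sums could not overlap, and the members of highest FPKM weigh most in them.

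The rule places every member below con in all 4 treated groups, so the sign in each group was fixed in advance. The median log2 difference from con over the 80 members was -0.42 without symptoms and -0.40 with them at 3‰, and -0.47 in either state at 6‰. Over all ids that passed the filters it was 0.10 and 0.03 at 3‰, and 0.08 and 0.03 at 6‰, without and with symptoms. These comparisons share the 3 control fish. At 3‰ the asymptomatic group had the lowest mean of the treated groups for 16 members (20%, against 18.4% of all ids that passed the filters) and the symptomatic group for 19 (23.75%, against 29.6%). At 6‰ these numbers were 25 (31.25%, against 25.6%) and 20 (25%, against 26.5%), and the differences from all ids were not tested. The highest mean of the treated groups fell at 3‰ for 26 members without symptoms (32.5%, against 27.9% of all ids) and 25 with them (31.25%, against 21.9%). At 6‰ it fell so for 16 (20%, against 29.8%) and 13 (16.25%, against 20.3%), again untested. The highest treated value of a member came from each of the 12 treated fish at least once, most often from 3‰-treated symptomatic replicate 3, for 16 members. The share of all ids for single fish was not counted. The lowest control value came from con replicates 1, 2 and 3 for 21, 28 and 31 members. An order over fewer fish is met more easily: with figure-named ids left out, as for the 80 members, it held for 206, 169 and 412 ids without con replicates 1, 2 and 3, and for 141 without 6‰-treated symptomatic replicate 3. With median-ratio scaling it held for 143 ids and with quantile normalization for 127, which kept 72 and 69 of the 80 members. Because the contrast with con chose them, the number of members past a fold of 1.5 and an unadjusted p of 0.05 in limma is a description: at 3‰, 22 members without symptoms (1.5% of all 24647 ids tested were lower by this measure) and 26 with them (2.29%), and at 6‰, 31 without (3.27%) and 29 with them (1.95%).

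The differences among the 12 treated fish entered the rule only indirectly. It set an upper limit on the treated values and favoured ids with little spread within the control and the treated fish. The differences were tested for every id in 1 limma model, whose p depends on that spread. The p and the shares of members called may thus be shaped in part by the selection, to an extent that was not tested. With the fold, the shares of members called were close to those of all 24647 ids tested. These ids needed a mean FPKM of only 0.5 and could be at 0 in some fish, unlike the members. Shares over the 20971 ids that passed the filters of the rule were not counted. Between 6‰-treated and 3‰-treated fish, 2 of the 80 members (2.5%) passed a fold of 1.5 with an unadjusted p below 0.05, against 3.64% of all ids. Both were lower at 6‰, where 1.69% of all ids were lower and 1.94% higher. Between symptomatic and asymptomatic treated fish, 3 members (3.75%) passed, against 4.48% of all ids. Of these, 1 was higher and 2 were lower in symptomatic fish, beside 1.91% and 2.57% of all ids. For the interaction, in which the symptom difference at 6‰ is set against that at 3‰, 2 members passed (2.5%, against 3% of all ids), 1 in each direction (1.49% of all ids higher and 1.51% lower). After Benjamini-Hochberg adjustment over all ids, 0 members passed in limma in any of the 3 comparisons, where 0.0122%, 0.073% and 0% of all ids did. The counts rest on few fish: for salinity 0 members passed without 3‰-treated symptomatic replicate 2, and 1 without either asymptomatic replicate 2 or symptomatic replicate 3 at 6‰. For the interaction 1 passed without 6‰-treated symptomatic replicate 2, and 4 when replicate 3 of that group, 6‰-treated asymptomatic replicate 1 or 3‰-treated symptomatic replicate 3 was left out. Without both fish of the most similar pair, 3 members passed for salinity (1 higher and 2 lower at 6‰), 2 for symptoms (both lower) and 4 for the interaction. The share of all ids called was not counted in the fits with fish left out. These shifts are therefore no result about the members. Without the fold, an unadjusted p below 0.05 was reached by 11 members for salinity (13.75%, against 9.81% of all ids), by 9 for symptoms (11.25%, against 19.2%) and by 4 for the interaction (5%, against 3.85%). The median difference over the members was -0.03 for salinity and -0.02 for symptoms, beside -0.00 and -0.05 for all ids.

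CI01180000_01196818_01224406 gave the smallest p for salinity among the members. It had 28.8, 20.5 and 27.8 FPKM in the control fish, while at 3‰ it had 17.0, 18.6 and 15.1 without symptoms and 12.2, 19.1 and 15.4 with them. At 6‰ it had 9.51, 8.97 and 10.96 without and 14.2, 8.79 and 8.30 with symptoms, so 5 of the 6 fish at 6‰ were below all 6 at 3‰. The exception, at 14.2, was replicate 1 of the 6‰-treated symptomatic group, a fish of the most similar pair. The difference of 6‰ minus 3‰ was -0.64 on the log2(FPKM + 1) scale (SE 0.15, limma adjusted p = 0.209). Without that fish it was -0.75 (limma adjusted p = 0.0235), and without both fish of the pair -0.83 (limma adjusted p = 0.0187), so the adjusted p passes or misses 0.05 by 1 library. Leaving out the exception widens the difference by the choice of fish, and the pair was chosen after the data were seen. The fold fell under 1.5 without 3‰-treated symptomatic replicate 2 or 6‰-treated symptomatic replicate 3, at -0.57 and -0.58. The member of rank 1 was also lower at 6‰ in its means, mostly in asymptomatic fish. Mean FPKM was 7.38 at 3‰ and 1.98 at 6‰ without symptoms, and 1.94 and 1.13 with them. Symptomatic fish of the 2 salinities overlapped. Averaged over both states, its difference of 6‰ minus 3‰ was -0.84 (SE 0.33, limma adjusted p = 0.432). Without 3‰-treated symptomatic replicate 2 this was -0.53, under the fold of 1.5, and without 6‰-treated asymptomatic replicate 2 it was -0.71, with an unadjusted p above 0.05. With a pseudocount of 0.1 or 0.01 in place of 1, the member of rank 1 was likewise not called for salinity.

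For symptoms, the member of rank 1 had the lower mean in symptomatic fish at both salinities, and the fish overlapped at 6‰. Its difference of symptomatic minus asymptomatic was -1.80 (SE 0.46) at 3‰ and -0.43 (SE 0.46) at 6‰, with a mean of -1.11 (SE 0.33, limma adjusted p = 0.112). The interaction, 1.37 (SE 0.66, adjusted p = 0.9999), was the largest in size of the 80 members and missed the unadjusted threshold. newGene_4681 had 3.51, 3.85 and 4.24 FPKM at 3‰ without symptoms and 3.77, 1.2505 and 1.58 with them, all below the 5.78, 5.06 and 5.47 of the control fish. At 6‰ it had 3.196, 4.95 and 1.60 without and 1.57, 1.39 and 1.87 with symptoms, and its difference was -0.66 (SE 0.21, limma adjusted p = 0.132). Single fish of the 2 states overlapped at both salinities, and without 3‰-treated symptomatic replicate 2 or 6‰-treated asymptomatic replicate 2 the difference was -0.55 or -0.51, under the fold of 1.5. The CI01000219 locus of rank 4 went the other way, at 0.65 (SE 0.25, limma adjusted p = 0.193), and missed a threshold, at 0.50 to 0.56, when replicate 1 of the 3‰-treated asymptomatic, the 6‰-treated asymptomatic or the 6‰-treated symptomatic group, or 3‰-treated symptomatic replicate 3, was left out. Without the most similar pair it was 0.62 (adjusted p = 0.186), and the unadjusted p was above 0.05.

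Of small but even differences there were 2. In CI01000017_00505305_00517048 all 6 symptomatic fish, at 40.003 to 43.9 FPKM, were below all 6 asymptomatic ones, at 46.0 to 50.5. In CI01000030_07438282_07471671 the symptomatic fish had 7.60 to 11.9 and the asymptomatic ones 12.5 to 13.8. This order of all 12 fish held for 2 of the 80 members and for 1.95% of all ids that passed the filters. The opposite order held for 0 members and 0.854% of all ids. The differences were -0.19 (SE 0.08) and -0.31 (SE 0.11), both under a fold of 1.5, and the adjusted p was 0.220 and 0.177 in limma. No member (0 of 80) had all 6 fish of 6‰ on one side of all 6 of 3‰, an order found for 0.105% of all ids with 6‰ below and for 0.129% with 6‰ above.

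**Figure D3:**
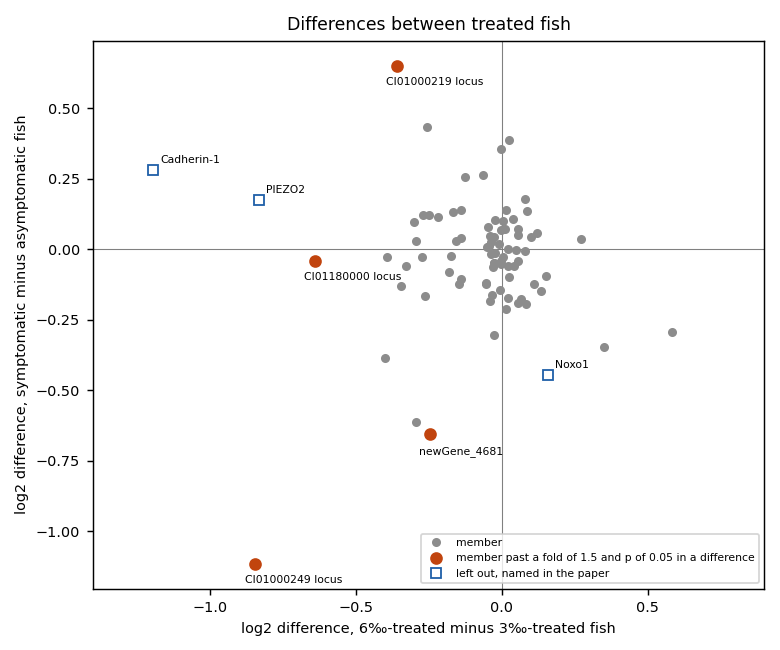
Each point is 1 member, placed by its log2 difference of 6‰-treated minus 3‰-treated fish (horizontal) and of symptomatic minus asymptomatic fish (vertical); squares are the 3 ids set aside because the study names them. Most members lie near 0 on both axes, and the CI01000249 locus lies lowest, at -0.84 and -1.11.

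The 3 named ids that met the rule had larger differences than most members. Noxo1 (CI01000113_02585185_02588728), in mammals the organizer subunit of an NADPH oxidase that makes superoxide, had 21.5, 8.34 and 14.2 FPKM in the control fish. It had 1.83 to 5.44 in the 6 fish at 3‰, and at 6‰ it had 7.08, 5.65 and 4.54 without symptoms and 2.78, 2.20 and 2.40 with them. Among the treated fish its 6‰-treated asymptomatic group was thus the highest by its mean of 5.75. The control mean of 14.7 was 3.90 times the treated mean.

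Cadherin-1 (CI01000013_11402841_11414169), the adhesion protein of epithelial junctions, had 4.60, 9.63 and 4.49 FPKM in the control fish and 2.27 to 4.23 in the 6 fish at 3‰. At 6‰ it had 0.742, 0.490 and 0.524 without symptoms and 3.16, 0.476 and 0.854 with them. PIEZO2 (CI01090692_00000356_00001387), a stretch-activated ion channel, given here by a locus of only 1032 bp, had 2.60, 3.14 and 2.66 in the control fish and 1.70 to 2.45 at 3‰. At 6‰ it had 1.08, 0.395 and 0.654 without and 2.51, 0.475 and 0.418 with symptoms. In both, 5 of the 6 fish at 6‰ were below all 6 at 3‰, and the exception was 6‰-treated symptomatic replicate 1, as for the CI01180000 locus.

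The differences of 6‰ minus 3‰ were -1.20 (SE 0.25, limma adjusted p = 0.188) for Cadherin-1 and -0.83 (SE 0.20, adjusted p = 0.209) for PIEZO2. Without both fish of the most similar pair they were -1.49 (limma adjusted p = 0.0108) and -1.06 (limma adjusted p = 0.00652). That pair holds 6‰-treated symptomatic replicate 1, the exception in both genes, and was left out after the data were seen. The larger differences and smaller p therefore follow from the choice of fish and are no support for a difference. Of all members, the CI01180000 locus had the values most like those of both genes over the 12 treated fish, with a Pearson r of 0.906 with Cadherin-1 and 0.873 with PIEZO2. These are descriptions over fish of 4 groups that share libraries, and no test was made of them.

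The members were spread over the genome. By the scaffold in their ids, the 71 members with a locus lay on 52 scaffolds, 38 with a single member and 14 with 2 or more, and no member overlapped another id of the files. Within 100 kb of a member there were 438 other ids that passed the filters, of which 40.2% had a lower mean in treated fish, against 39.4% of all ids. Their median log2 difference of treated minus con was 0.06, as for all ids. The neighbours of the members were thus not lower as a group. An example, chosen after its values were seen, is CI01000306_01476783_01478195, the member of rank 6, with 6.06, 7.30 and 6.35 FPKM in control fish and 0.532 to 5.94 in treated ones. At 1646 bp from it lies an id that the study names Tudor domain-containing protein 3, with 17.7, 9.83 and 9.99 FPKM in control fish and 10.3 to 49.3 in treated fish, the opposite direction in the means. Other named neighbours within 100 kb of a member went both ways. On the log2 scale, treated minus con was -0.54 for the CD4-like protein, -0.63 for an NLRC3 and -1.39 for Mx3. It was 0.63 for CXCR3 and 0.01 for NLRX1. The value for Mx3 averages treated groups whose means lay on both sides of con. Mean FPKM of Mx3 was 19.1 ± 17.3 (SD, n = 3) in con and 34.2 in 3‰-treated symptomatic fish. In the other treated groups it was lower: 5.85 at 3‰ without symptoms, and at 6‰ 0.262 without and 11.7 with them. The NLRC3 and Mx3 ids had 0 FPKM in some treated fish and did not pass the filters.

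Only 2 stretches held members within 100 kb of each other. On scaffold CI01000171, 4 members lay between positions 682164 and 874260 (positions as in the ids, of a genome build that the sources used here do not name). Rank 2 of the members, described above, is the second of them. The last, CI01000171_00871295_00874260, had 3.40, 3.58 and 12.7 FPKM in control fish and 0.977 to 3.38 in treated fish, so that 1 control fish was far above the others and the gap was narrow. CI01000171_00822608_00823794 was even within groups, with 220.3, 222 and 221 in control fish and 154 to 194 in treated ones, and the remaining one, the first by position, is the member closest to overlap, named with the thresholds.

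Between these 4 members lay ids of both directions in the treated mean. Of the 10 ids of the stretch that passed the filters, 7 had a lower treated mean and 3 a higher one. The 7 include the 4 members, whose direction was fixed by the rule, so this count is no result. Over all ids that passed the filters, 39.4% had a lower treated mean. The 6 ids that were no members had differences of -0.29 to 0.19 on the log2 scale, where the first member had -0.18. The other stretch, on scaffold CI01000319 between 6248519 and 6294387, held 2 members. CI01000319_06248519_06260402 had 19.2, 18.98 and 17.0 FPKM in control fish and 11.3 to 16.7 in treated fish. CI01000319_06289240_06294387 had 82.7, 82.2 and 104 against 60.3 to 80.2.

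**Figure D4:**
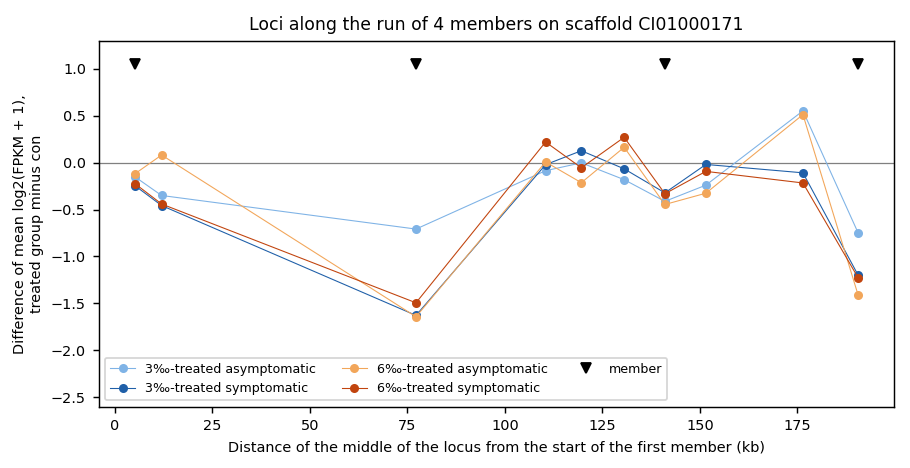
Difference of the mean log2(FPKM + 1) of each treated group from con for the 10 ids along the stretch of scaffold CI01000171, by the distance of the locus from the start of the first member in kb; triangles mark the 4 members. The second and the last member lie below all other ids of the stretch in each treated group.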

How the data were processed

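Gill RNA of 15 grass carp was sequenced with 1 library per fish, and the authors deposited 1 file per fish with FPKM values (fragments per kilobase of transcript and per library total). The paper describes a Trinity assembly, whereas most ids are genome loci; no source used here names the aligner, the counting or the genome build. Each file held 1 line with no gene, which was left out. Depth in reads is unknown, so no count test was run. The members and the lists were chosen with earlier results of these data known. Figure labels of the paper gave 302 named ids, 270 of them in the files, used only to leave ids out and to name them. The labels were read by eye from the pictures, so a misread id could leave a member in or out or be misnamed.

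Differences were tested on log2(FPKM + 1), a scale that understates the change of low genes, with limma 3.58.1 in R 4.3.3, in 1 model over 5 groups, for the 24647 ids with a mean FPKM of at least 0.5. A call needs a fold change of at least 1.5 and an unadjusted p below 0.05, after the thresholds of the study, where adjustment is left unstated. Salinity is the mean over both symptom states, symptoms the mean over both salinities, and the interaction the symptom difference at 6‰ minus that at 3‰. The fit was also run on simulated normal values, drawn from its own means and spread with changes planted in some ids. This checks the calculation and not whether the model suits these fish. Replicates are separate fish.

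Ids named are the 5 members of largest difference, the 3 of highest mean FPKM, up to 2 per direction called between treated groups, the highest-ranked of each stretch of members within 100 kb, those at each threshold, and named ids that met the rule. The other loci named, which are the remaining members of the 2 stretches, the pair with separated symptom states, the member of rank 6, the 1 with opposite order at the 2 salinities and the neighbours, were chosen after their values were seen. Alternatives were other scalings, filters and pseudocounts, a replicate block, and fish left out. Leaving out the most similar pair was chosen after seeing the data.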

Additional observations from a re-analysis of the deposited data

Results flagged for a closer look

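In 3 members the difference between symptomatic and asymptomatic fish was unlike at the 2 salinities, either past the fold and the unadjusted p of the interaction or in the order of all fish, and none of these passed after adjustment. CI01000171_00732682_00786057 was lower in symptomatic fish at 3‰, at -0.92 (SE 0.24), and at 0.15 (SE 0.24) at 6‰. The interaction was 1.07 (SE 0.34, limma adjusted p = 0.9999). CI01000186_00340443_00342720 had 101, 108 and 121 FPKM at 3‰ without symptoms and 122, 158 and 172 with them, and at 6‰ 116, 121 and 105 against 114, 80.2 and 106. Its interaction was -0.63 (SE 0.25, limma adjusted p = 0.9999). Under quantile normalization it was -0.58, under the fold of 1.5, and with 1 fish left out it was -0.78 to -0.48 and missed a threshold in 5 cases: without replicate 1 of 3‰-treated asymptomatic, replicate 2 or 3 of 3‰-treated symptomatic, replicate 2 of 6‰-treated asymptomatic or replicate 2 of 6‰-treated symptomatic fish. These 2 are the members past the fold and the unadjusted p, 2.5% of the 80, where 3% of all ids passed, and after adjustment 0 members and 0 of all ids passed in limma, with 4 members at an unadjusted p below 0.05.

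In CI01000016_08926089_08945071 the symptomatic and asymptomatic fish did not overlap at either salinity, and their order was opposite at the 2 salinities. The share of all ids with such an order was not counted, so this describes a single id and is no result about the members. At 3‰ it had 1.24, 1.37 and 1.29 FPKM in asymptomatic fish and 1.47, 2.21 and 1.72 in symptomatic fish, while at 6‰ it had 1.76, 2.11 and 2.02 against 1.65, 1.28 and 1.35. The interaction was -0.56 (SE 0.20, limma adjusted p = 0.9999). This is under a fold of 1.5 on the log2(FPKM + 1) scale, which understates changes at FPKM as low as these. Groups of 3 fish are too small for a test of single outlying fish.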

How the results depend on the processing

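The number of ids lower in every treated fish, with those named in the study's figures left out (80), depended on the scaling and on single fish. It was 143 with median-ratio scaling, where 72 of the 80 members were kept, 127 with quantile normalization, where 69 were kept, and 129 with no filter on low values. Both scalings moved the median of all ids from 0.06 to about -0.00. Leaving out 1 fish gave 83 to 412 ids. The count was 206, 169 and 412 without con replicates 1, 2 and 3, and 141 without 6‰-treated symptomatic replicate 3. The median difference of the members was -0.52 with either scaling and -0.49 to -0.39 with 1 fish left out, lowest in size without con replicate 1. Members called for salinity were 1 with a pseudocount of 0.1 or 0.01, 0 with the adjusted p, and 0 to 3 with 1 fish left out, 0 of them without 3‰-treated symptomatic replicate 2. For symptoms they were 0 with the adjusted p and 2 to 3 with 1 fish left out. For the interaction they were 0 with the adjusted p, 1 to 4 with 1 fish left out and 4 without both fish of the most similar pair. With the replicate number as a block the counts stayed at 2, 3 and 2. The share of all ids called was not counted in the fits with another pseudocount, with a block or with fish left out. Deviations of fish of different groups with the same number correlated at -0.47 to 0.54, over 0.1 in 10 of 30 pairs. With other numbers they correlated at -0.56 to 0.41, over 0.1 in 17 of 60 pairs. Whether a number marks a shared batch was not tested and is not stated by the labels. The causes of the shifts in the counts were not tested. No depth is known, and 3 fish per group limit the precision.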
